A study of Rattus norvegicus with 16 samples.

Results

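Gene expression in the gustatory cortex of rats killed 1 h after a drink of familiar water was set against that of rats killed 3 h after it, across all genes measured. The 8 arrays, 4 titled water at 1 h and 4 titled water at 3 h, were chosen by these titles from the 16 arrays of the series. The other 8 came from rats that drank 0.1% saccharin, a taste new to them, and were killed at the same times. Each array held the RNA of 1 rat. All rats were males of the Wistar Hola strain with no transgene or deletion, given as 2 months old in the labels and as 10 to 16 weeks old in the study's methods. All had been on water restriction for 3 days, trained to take a daily ration of 20 ml from pipettes within 20 min. The water groups therefore differed in time after drinking alone as far as the labels say, and water was the taste they knew from training. No array came from a rat that was still water restricted, so a rise by 1 h and a decline by 3 h cannot be told apart, nor can time since drinking and time of day.

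Immediate early genes are transcribed within minutes of synaptic activity or a hormonal signal, without new protein synthesis, and their short-lived mRNAs are mostly gone within hours. Many encode transcription factors, such as Fos, Junb and Nr4a1, while others encode brakes on MAP kinase signalling, such as Dusp1, or proteins that act at the synapse, such as Arc. The gustatory cortex is the part of the insula that receives taste, and it takes part in learning whether a taste is safe.

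Levels are log2 values from RMA, a method that normalizes probe signals across arrays and joins them into 1 value per probe set. Among the 8 water arrays the median ran from 5.084 to 5.165, and any pair correlated between 0.9947 and 0.9968 over all probe sets. Array C378, at 1 h, stood apart from the other 7 on the second principal component (-13.7 against -2.41 to 6.38). Markers of excitatory cortical neurons were bright in every rat, with the vesicular glutamate transporter Slc17a7 between 10.80 and 10.96 and Camk2a between 11.69 and 11.80. The 3 h arrays carry the numbers C365 to C372 and the 1 h arrays C373 to C380, so the order of the numbers and time cannot be told apart. In bulk tissue, fewer cells of a type and less RNA per cell cannot be told apart either.

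Of 15209 probe sets paired with 1 gene, 19 (0.125%) differed between 1 h and 3 h after water at an adjusted p under 0.05 in limma. The level was higher at 1 h for 15 of them (0.0986% of all tested), by 1.3-fold to 2.77-fold in all but Rcor2, whose 3 h values were near the floor, and higher at 3 h for 4 (0.0263%), by 1.28-fold to 1.5-fold. The 15 were the immediate early transcription factors Nr4a1, Fos, Junb, Klf10, Csrnp1, Ier2 and Klf4, the signalling brakes Dusp1 and Trib1, the synaptic gene Arc, the receptors Chrm4 and Gpr19, the clock gene Per1, and the repressors Hes1 and Rcor2. The 4 were the phosphodiesterases Pde7b and Pde10a, the activin subunit Inhba and the surface protein Podxl. In 18 of the 19 the values of the 4 rats at 1 h did not overlap those of the 4 rats at 3 h, against 4.35% of all probe sets tested, and Arc was the exception. The 19 were chosen by their p on these same arrays, so the lack of overlap largely follows from that choice.

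**Figure D1:**
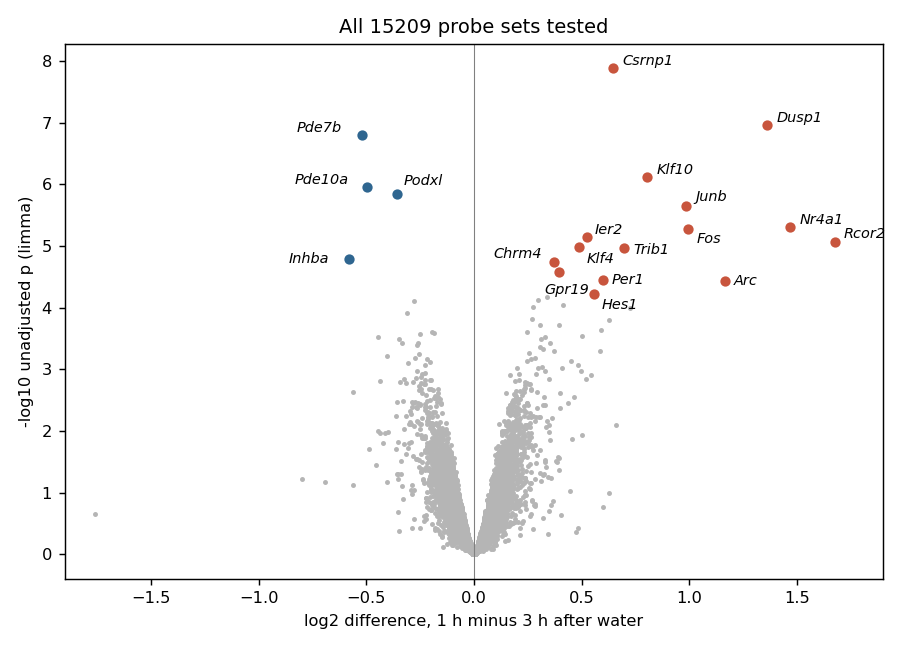
Each point is 1 of the 15209 probe sets, with the log2 difference between 1 h and 3 h after water on the x axis and -log10 of the unadjusted p from limma on the y axis. The 15 probe sets called higher at 1 h are in red and reach a difference of 1.67, and the 4 called higher at 3 h are in blue and reach -0.58.

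Over all probe sets the median difference was -0.00226, and 48.7% were positive. At an unadjusted p under 0.05 there were 1099 probe sets (7.23%), 558 higher at 1 h (3.67%) and 541 higher at 3 h (3.56%). The threshold of the study's methods, which needs an unadjusted p up to 0.05 and a log2 difference of at least 0.32 either way, passed 87 (0.572%), 58 higher at 1 h (0.381%) and 29 higher at 3 h (0.191%). The number called rested on the spread shared with the saccharin arrays, as a fit to the 8 water arrays alone called 3. It also rested on single rats: leaving out the 1 h array C376 left 8 called and leaving out the 3 h array C367 left 9, with 5 and 6 of them higher at 1 h, while the calls higher at 1 h numbered 8 without C369 and 23 without C373.

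Nr4a1 (probe set 10899387), a nuclear receptor made within minutes of stimulation, had the largest difference among the transcription factors. Its level was 8.84, 9.20, 9.03 and 8.97 in the 4 rats at 1 h and 8.34, 6.94, 6.97 and 7.92 in the 4 rats at 3 h. The rats at 1 h lay close together, and those at 3 h spread widely below them. The mean was 9.01 ± 0.148 (SD, n = 4) at 1 h and 7.54 ± 0.701 at 3 h, a difference of 1.47 ± 0.227 (SE) or 2.77-fold (adjusted p = 0.0089 in limma). The call held with any 1 water array left out. It was lost with limma's trend and robust prior (adjusted p = 0.0651) and in the fit to the 8 water arrays alone (0.147).

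Fos (10886031) and Junb (10806585) encode partners in the AP-1 transcription factor. Fos measured 6.55, 6.86, 6.81 and 6.62 at 1 h, against 6.29, 5.30, 5.40 and 5.88 at 3 h. Junb measured 7.73, 8.14, 7.92 and 7.84 at 1 h, against 7.34, 6.70, 6.59 and 7.05 at 3 h. In both genes the 3 h rat of array C365 came nearest to the 1 h rats, and C367 and C369 were the lowest. The differences were 0.99 ± 0.154 (SE) for Fos and 0.98 ± 0.143 for Junb, or 1.99-fold and 1.98-fold (adjusted p = 0.0089 and 0.00489 in limma).

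Csrnp1 (10920967), a nuclear protein named for its serine and cysteine content, had the smallest p of all 15209 probe sets. It measured 5.55, 5.69, 5.67 and 5.58 at 1 h and 4.99, 4.82, 5.12 and 4.97 at 3 h. Both groups were tight and lay clearly apart, with a difference of 0.65 ± 0.0653 (SE; adjusted p = 0.000199 in limma). Klf10 (10903459), a zinc finger repressor, measured 7.07, 7.09, 7.30 and 6.96 at 1 h and 6.54, 6.14, 5.99 and 6.52 at 3 h. Its 3 h rats formed a higher and a lower pair, all under the 1 h rats, and the difference was 0.80 ± 0.108 (adjusted p = 0.00289 in limma). Ier2 (10806685) was 0.53 higher at 1 h, with levels from 5.07 to 5.30 against 4.45 to 4.90 at 3 h. Klf4 (10876838), a zinc finger factor, was 0.49 higher, with levels from 5.25 to 5.65 against 4.85 to 5.21. A second probe set of Klf4 (10873814) differed by 0.46, with overlapping arrays and an adjusted p of 0.34. Leaving out C376 took the adjusted p of Fos to 0.0549, of Ier2 to 0.0687 and of Klf4 to 0.0717, leaving out C367 took that of Ier2 to 0.0599 and of Klf4 to 0.0838, and leaving out C369 took that of Klf4 to 0.0659.

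Of the genes higher at 1 h whose promoter window was held, the 4 whose window contains TGACG are shown, chosen for that match. Each window runs from 250 bases before to 50 bases after the RefSeq start on the GRCr8 build, written 5′ to 3′ on the strand of the gene. Capitals mark TGACG, the core of the cAMP response element, read on either strand (CGTCA on the other), and the full palindrome TGACGTCA, which contains the core on each strand.
Dusp1 (chr10:17184603-17184902, + strand): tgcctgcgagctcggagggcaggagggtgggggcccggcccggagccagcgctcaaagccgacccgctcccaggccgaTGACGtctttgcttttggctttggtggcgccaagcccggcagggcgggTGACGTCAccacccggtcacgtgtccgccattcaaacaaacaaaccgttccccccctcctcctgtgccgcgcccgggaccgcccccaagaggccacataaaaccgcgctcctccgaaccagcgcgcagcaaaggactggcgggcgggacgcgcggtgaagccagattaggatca
Ier2 (chr19:40399123-40399422, + strand): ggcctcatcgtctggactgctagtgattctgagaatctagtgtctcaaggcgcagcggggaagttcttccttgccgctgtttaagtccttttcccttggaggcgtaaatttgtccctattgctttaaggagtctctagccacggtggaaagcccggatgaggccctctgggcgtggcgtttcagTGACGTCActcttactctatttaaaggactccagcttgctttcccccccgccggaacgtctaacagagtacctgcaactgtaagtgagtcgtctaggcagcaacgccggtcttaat
Junb (chr19:40080876-40081175, + strand): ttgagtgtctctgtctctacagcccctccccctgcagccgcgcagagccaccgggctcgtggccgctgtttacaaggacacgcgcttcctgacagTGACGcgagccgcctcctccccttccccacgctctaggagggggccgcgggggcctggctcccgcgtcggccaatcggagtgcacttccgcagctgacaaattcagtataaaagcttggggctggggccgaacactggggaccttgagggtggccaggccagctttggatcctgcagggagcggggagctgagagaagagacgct
Nr4a1 (chr7:134259888-134260187, + strand): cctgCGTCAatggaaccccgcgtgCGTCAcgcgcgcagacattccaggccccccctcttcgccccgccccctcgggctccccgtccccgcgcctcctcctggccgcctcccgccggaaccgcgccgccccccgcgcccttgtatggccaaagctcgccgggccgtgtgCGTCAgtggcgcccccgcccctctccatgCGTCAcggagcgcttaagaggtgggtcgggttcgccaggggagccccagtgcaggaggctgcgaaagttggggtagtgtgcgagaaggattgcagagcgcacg

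A window was held for 8 of the 15 genes higher at 1 h, and 4 of these 8, the ones printed, contained TGACG. Among all 33469 rat windows 21.2% contained it, and among the 12531 windows of genes tested here 26.2%. The full TGACGTCA was in the windows of Dusp1 and Ier2, in 1.83% of all windows and in 2.44% of those of tested genes. The other windows held were those of Klf4, Chrm4, Per1 and Hes1, with no TGACG in them, and among the 4 genes higher at 3 h it lay in 1 of the windows of Pde10a but not in those of Podxl or Inhba. On either strand, the AP-1 site TGANTCA (7.33% of all windows and 6.28% of those of tested genes) and the CArG box (1.64% and 1.31%) were in none of the windows held. These covered 8 of the 15 genes higher at 1 h and 3 of the 4 higher at 3 h, and neither Fos nor Arc. The E-box CACGTG (6.42% and 7.76%) was in that of Dusp1, the EGR site GCGNGGGCG (4.98% and 7.82%) in that of Nr4a1, and TATAAA (14.2% and 11.6%) in those of Junb, Klf4 and Inhba. These are letter matches and not measured binding, and a window without a match says nothing of sites further away.

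The immediate early transcription factors were not all higher at 1 h. This list and those below were chosen with earlier results of these data known, so a count of called members does not test a list. Of 28 factors measured, 7 were called higher at 1 h and 0 higher at 3 h, against 0.0986% and 0.0263% of all probe sets. Of the 28, 21 were positive, and the median difference was 0.15, against -0.00226 over all probe sets. At an unadjusted p under 0.05, 12 were higher at 1 h and 4 were higher at 3 h, against 3.67% and 3.56% of all probe sets. Jun (10878112), the partner of Fos, lay just outside the adjusted threshold at 7.92, 7.96, 7.92 and 7.94 in the rats at 1 h and 7.64, 7.54, 7.68 and 7.80 in the rats at 3 h. Its groups did not overlap, the difference was 0.27 ± 0.0563 (SE; adjusted p = 0.0841 in limma), and it passed without C371 (adjusted p = 0.0333). Klf2 (10790670) differed by 0.58 with an adjusted p of 0.16 and passed without C373 (0.0481). Leaving out C376 reduced the 7 calls to 4, and the fit to the water arrays alone to 1.

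The 4 that lay higher at 3 h by the unadjusted p were Fosl2, Srf, Egr3 and Klf6, which are named here after their values were seen. Fosl2, another AP-1 member, was at 7.29, 7.43, 7.39 and 7.40 in the rats at 1 h against 7.67, 7.64, 7.57 and 7.51 in the rats at 3 h. Every 3 h rat was above every 1 h rat, in the opposite order to Fos and Junb, but the difference of -0.22 ± 0.053 (SE) had an adjusted p of 0.188 in limma. Srf, the serum response factor that drives many immediate early promoters, differed by -0.14, Egr3 by -0.20 and Klf6 by -0.13, each with arrays that did not overlap and an adjusted p of at least 0.525. The 3 h arrays lay wholly above the 1 h arrays in 4 of the 28 factors, against 2.43% of all probe sets. Nr4a2, a relative of Nr4a1 that marks deep-layer and claustral neurons, differed by -0.35, with 8.19 to 8.71 at 1 h and 8.47 to 9.03 at 3 h (adjusted p = 0.692).

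**Figure D2:**
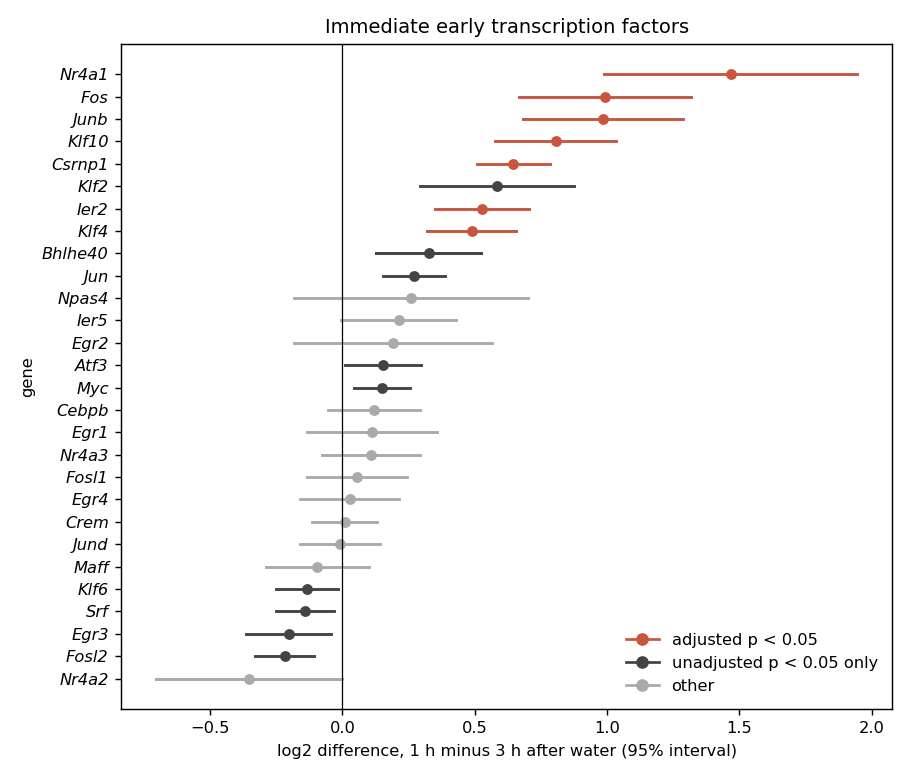
Log2 difference between 1 h and 3 h after water for the 28 immediate early transcription factors measured, with 95% intervals from limma. The 7 in red passed the adjusted threshold, from 0.49 for Klf4 to 1.47 for Nr4a1, and the members at the bottom, from Klf6 at -0.13 to Nr4a2 at -0.35, lay higher at 3 h without passing it.

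Other well known activity genes showed more spread between rats than difference between times. Egr1, a zinc finger factor used to map active neurons, was at 9.28 to 9.61 at 1 h against 9.75, 9.23, 9.27 and 9.18 at 3 h. Egr2 was at 5.74 to 6.12 at 1 h against 6.46, 5.46, 5.51 and 5.48 at 3 h. Npas4, a neuron-specific factor that answers to calcium entry, was at 6.66 to 6.94 at 1 h against 7.34, 6.002, 6.397 and 6.44 at 3 h. In all 3 genes the 3 h rat of array C365 was the highest of the 8 and the other 3 rats at 3 h lay below every 1 h rat. Their differences were 0.11, 0.19 and 0.26, with adjusted p-values from 0.855 to 0.899 in limma. These genes were also named after their values were seen.

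Array C365 had the same place in most of the genes that were called. It was the highest of the 3 h arrays in 11 of the 15 probe sets higher at 1 h, against 22.2% of all probe sets tested, and in 7 of the 15 it lay nearer to the mean at 1 h than to the mean of the other 3 h rats. Over the 28 immediate early transcription factors it was the highest 3 h array for 18, and C367 was the lowest for 18. At 1 h, C373 was the lowest array in 11 of the 15 and C374 the highest in 10. The SD was larger at 3 h than at 1 h in 13 of the 15, with a median of 0.277 at 3 h and 0.164 at 1 h, whereas over all probe sets the median SD was 0.0788 at 3 h and 0.0861 at 1 h.

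**Figure D3:**
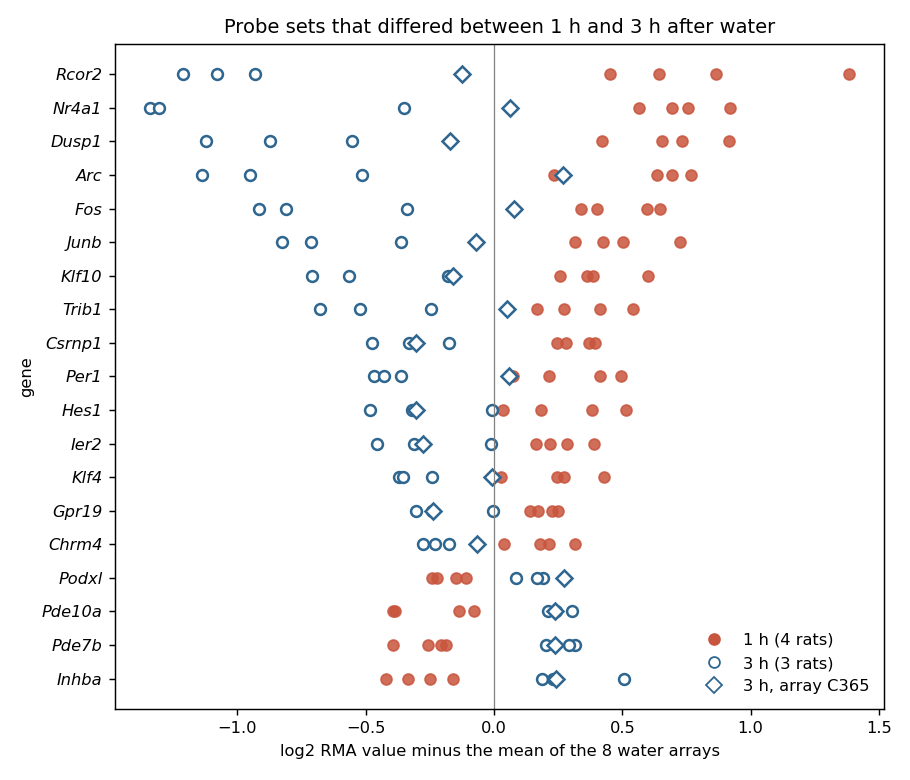
Level of each of the 19 called probe sets on each water array, as the log2 value minus the mean of the 8 arrays, with filled points for the 4 rats at 1 h and open symbols for the 4 rats at 3 h. The diamond, the 3 h array C365, is the highest 3 h point in 11 of the 15 genes higher at 1 h, and in Arc it lies beside the lowest 1 h point (8.67 against 8.63).

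Dusp1 (10732652), the phosphatase that switches off p38, JNK and ERK in the nucleus, was 2.57-fold higher at 1 h. Its level was 8.62, 9.12, 8.86 and 8.93 at 1 h and 8.03, 7.33, 7.08 and 7.65 at 3 h. The highest 3 h rat lay well below the lowest 1 h rat, and the difference of 1.36 ± 0.159 (SE) kept its call under every alternative tried (adjusted p = 0.000808 in limma). Of the 16 MAP kinase phosphatases, Sproutys and other brakes measured, Dusp1 was the 1 called (0.0986% of all probe sets were called higher at 1 h). The list's median difference was 0.00613. Dusp6 (10895144), the cytoplasmic ERK phosphatase, was at 8.19, 8.21, 8.22 and 8.27 at 1 h against 8.19, 7.51, 7.42 and 7.85 at 3 h. Its 1 h rats were nearly equal, the 3 h rat C365 reached their lower edge, and the other 3 lay below. The difference was 0.48 ± 0.12 with an adjusted p of 0.214, and of 0.00415 without C365. Spry2, a feedback inhibitor of receptor tyrosine kinases, differed by 0.22 and Dusp5 by 0.23, with adjusted p-values of 0.327 and 0.578.

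Among 11 inducible Sik, Plk, Tribbles, Sgk and Pim kinases, Trib1 was called higher at 1 h (0.0986% of all probe sets) and the median difference was 0.06. Trib1 (10896793), a pseudokinase that directs proteins to degradation, measured 6.15, 6.52, 6.39 and 6.25 at 1 h against 6.03, 5.46, 5.30 and 5.74 at 3 h. The 3 h rats all lay below, C365 by the least, and the difference was 0.70 ± 0.115 (SE; adjusted p = 0.0127 in limma, and 0.0838 without C367, 0.072 without C374 and 0.0717 without C376). Plk3, a polo-like kinase of the stress response, differed by 0.63 (adjusted p = 0.0859) and Sik1, a salt-inducible kinase that holds CREB coactivators out of the nucleus, by 0.59 (adjusted p = 0.11). In both genes C365 lay above the lowest 1 h rat, and both passed without C365 (adjusted p = 0.00884 and 0.00846) and without C373 (0.0246 and 0.0153).

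Arc (10904511), whose protein trims AMPA receptors from active synapses, was 2.24-fold higher at 1 h. It was at 8.63, 9.17, 9.03 and 9.09 at 1 h against 8.67, 7.26, 7.45 and 7.88 at 3 h. The 3 h rat C365 sat just above the lowest 1 h rat and more than 0.7 above the next 3 h rat. The difference was 1.17 ± 0.213 (SE; adjusted p = 0.0311 in limma). The call was lost without any 1 of C367, C369, C371, C374, C376 and C378, with an adjusted p between 0.0613 and 0.152.

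A list of activity-induced synaptic effectors also held clock, stress and survival genes. Of its 17 genes measured, 2 were called higher at 1 h, the synaptic gene Arc and the clock gene Per1. None was called higher at 3 h, and the median difference was 0.06. Over all probe sets 0.0986% were called higher at 1 h and 0.0263% higher at 3 h. Members that did not pass lay in both directions. Gadd45b, a stress gene that takes part in DNA demethylation, differed by 0.34 and the survival factor Mcl1 by 0.27, while Gadd45a, a relative of Gadd45b, differed by -0.23, the synaptic organiser Nptx2 by -0.25 and the scaffold gene Homer1 by -0.15. Adjusted p-values of these 5 ran from 0.249 to 0.66 in limma. The arrays of Gadd45a, Nptx2, Mcl1 and Homer1 did not overlap between times, and those of Gadd45b did. Of the 17, the 1 h arrays lay wholly above in 2 and the 3 h arrays in 3, against 1.93% and 2.43% of all probe sets.

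Among 23 activity-regulated secreted factors, Inhba was called, higher at 3 h (0.0263% of all probe sets), and the median difference was -0.01. Inhba (10798702), the subunit of activin A, was at 5.57, 5.31, 5.40 and 5.48 at 1 h against 5.97, 6.24, 5.96 and 5.92 at 3 h. All 4 rats at 3 h were above all 4 at 1 h, and C367 was the highest. The difference was -0.58 ± 0.0993 (SE), or 1.5-fold higher at 3 h (adjusted p = 0.0176 in limma, and 0.095 without C367, 0.0816 without C374 and 0.0798 without C376). Ccn1 (10827231), a matricellular protein, pointed the other way at 5.08, 5.996, 5.70 and 5.62 against 4.99, 4.81, 4.72 and 4.99. Its difference was 0.72 ± 0.145 with an adjusted p of 0.0613, and 0.00166 without C373, its lowest 1 h array. Vgf, a neuropeptide precursor, was at 7.92, 7.91, 7.91 and 7.53 at 1 h and between 8.10 and 8.21 at 3 h, a difference of -0.34 with an adjusted p of 0.277. Bdnf, the neurotrophin, differed by -0.24 with an adjusted p of 0.512, and its arrays did not overlap.

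Pde7b and Pde10a encode phosphodiesterases that break down cyclic AMP, Pde10a cyclic GMP as well. Pde7b (10717069) was at 7.197, 7.21, 7.15 and 7.01 at 1 h against 7.64, 7.72, 7.70 and 7.60 at 3 h. Pde10a (10718043) was at 7.41, 7.35, 7.10 and 7.10 at 1 h against 7.73, 7.79, 7.73 and 7.70 at 3 h. The 3 h rats were tightly grouped in both genes and lay above every 1 h rat. The differences were -0.52 ± 0.0626 and -0.50 ± 0.0685 (SE), or 1.44-fold and 1.41-fold higher at 3 h (adjusted p = 0.000808 and 0.0034 in limma). They were the 2 called of 17 phosphodiesterases measured, whose median difference was -0.02, where 0.0263% of all probe sets were called higher at 3 h. Of the others, Pde8b differed by 0.15 with overlapping arrays and Pde4b, the form often induced by cyclic AMP, was at 7.68 to 7.87 at 1 h and 7.84 to 7.88 at 3 h.

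Podxl (10861662), a sialomucin of endothelial cells and of growing neurites, was at 6.19, 6.28, 6.21 and 6.32 at 1 h against 6.70, 6.62, 6.60 and 6.51 at 3 h. The groups did not overlap, and the difference was -0.36 ± 0.0505 (SE), or 1.28-fold higher at 3 h (adjusted p = 0.00361 in limma). Podxl was the 1 called of 22 endothelial and pericyte markers, whose median difference was 0.000455, where 0.0263% of all probe sets were called higher at 3 h. In all 4 genes higher at 3 h, array C371 was the lowest of the 3 h rats.

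Chrm4 and Gpr19 are G protein-coupled receptors, Chrm4 being the M4 muscarinic acetylcholine receptor and Gpr19 an orphan. Chrm4 (10837998) was at 7.82, 8.10, 7.96 and 7.99 at 1 h against 7.71, 7.55, 7.60 and 7.50 at 3 h. Gpr19 (10866410) was at 6.83, 6.91, 6.88 and 6.80 at 1 h against 6.42, 6.42, 6.36 and 6.66 at 3 h. Neither overlapped between times, and the differences were 0.37 ± 0.0642 and 0.39 ± 0.0698 (SE; adjusted p = 0.0181 and 0.0249 in limma). Both were among the less firm calls. That of Chrm4 was lost without any 1 of C367, C369, C371, C374, C376 and C378 (adjusted p from 0.0595 to 0.0951), and that of Gpr19 without any 1 of C365, C367, C369, C374 and C376 (0.0761 to 0.129). Of 24 muscarinic, adrenergic and serotonin receptors Chrm4 was the 1 called, higher at 1 h (0.0986% of all probe sets), with a median difference of -0.00981. Chrm2, the M2 receptor, lay in the other direction, with every 3 h rat above every 1 h rat (6.95 to 7.10 against 6.64 to 6.93), and Chrm1, the main cortical muscarinic receptor, was at 9.06 to 9.24 and 9.10 to 9.13.

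Both Chrm4 and Pde10a stand on the list of striatal projection neuron markers, in opposite directions. Of 17 such markers measured, these 2 were called (0.125% of all probe sets, either direction), 12 were negative, and the median difference was -0.04. At an unadjusted p under 0.05, Chrm4 was higher at 1 h, and Pde10a and Drd2 (-0.24, 95% interval -0.46 to -0.02) were higher at 3 h. Of the defining markers, Drd1 lay between 5.87 and 6.41, above the array medians of 5.084 to 5.165, and Adora2a between 4.72 and 4.95, below them. Rgs9, also a defining marker, differed by -0.13 (adjusted p = 0.773 in limma). Drd2 lay between 4.37 and 4.97, also below the medians. The mean level of the list was 6.13 to 6.24 at 1 h and 6.22 to 6.25 at 3 h. The part of striatal tissue in these 2 differences was not tested.

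No potassium channel was called of 25 measured in limma, and 3 had an unadjusted p under 0.05, all higher at 3 h (3.56% of all probe sets). Kcnj2 (10739353), an inward rectifier that holds the resting potential, was at 6.59, 6.41, 6.36 and 6.62 at 1 h against 6.72, 7.25, 6.96 and 6.86 at 3 h. Its groups did not overlap, the difference was -0.45 ± 0.0999 (SE), and the adjusted p of 0.121 became 0.0444 without C365, its lowest 3 h array. Kcnd3, an A-type channel, differed by -0.20 and Kcnf1, a modulatory subunit, by -0.18. In 6 of the 25 channels the 3 h arrays lay wholly above the 1 h arrays, and in 0 below, where the shares over all probe sets were 2.43% and 1.93%. Of 21 glutamate receptor genes 0 were called, 2 had an unadjusted p under 0.05, and 16 were negative around a median of -0.03. Of 11 GABA-A subunits 0 were called and 0 had an unadjusted p under 0.05.

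Per1 (10734882), a core clock gene that light, glucocorticoids and cyclic AMP also induce directly, was 1.51-fold higher at 1 h. It was at 6.79, 7.21, 6.93 and 7.13 at 1 h against 6.77, 6.24, 6.35 and 6.29 at 3 h. The 3 h rat C365 almost reached the lowest 1 h rat and the other 3 were well below. The difference was 0.60 ± 0.109 (SE; adjusted p = 0.0311 in limma), and it did not pass without any 1 of C367, C369, C371, C374, C376 and C378 (0.0744 to 0.159).

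Per1 was the 1 called of 16 clock genes (0.0986% of all probe sets were called higher at 1 h). However, 12 of the 16 were positive, around a median of 0.12. At an unadjusted p under 0.05 there were 6, all higher at 1 h, against 3.67% of all probe sets. The other 5 were Nr1d1 and Nr1d2, repressors of the loop, Bhlhe40 and Bhlhe41, which repress E-box genes, and Dbp, an output factor. Nr1d1 (10746955) was at 8.65, 8.83, 8.61 and 8.65 at 1 h against 8.34, 8.41, 8.34 and 8.42 at 3 h, with no overlap and a difference of 0.31 ± 0.0709 (adjusted p = 0.148). Dbp differed by 0.26, Bhlhe41 by 0.26, Nr1d2 by 0.16 and Bhlhe40 by 0.33, with adjusted p-values from 0.28 to 0.557, and of these Bhlhe40 alone had overlapping arrays. The 1 h arrays lay wholly above the 3 h arrays in 5 of the 16, against 1.93% of all probe sets. Per2, named after its values were seen, was at 6.36 to 6.73 at 1 h against 6.87, 6.199, 6.39 and 6.2 at 3 h, with C365 the highest of the 8. The mean level of the 16 genes was 7.50 to 7.62 in the 1 h rats and 7.37 to 7.44 in the 3 h rats.

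Dusp1 and Per1 are also targets of the glucocorticoid receptor. They were the 2 called of 21 such targets, where 0.0986% of all probe sets were called higher at 1 h. The median difference of the 21 was 0.00598. Tsc22d3, an anti-inflammatory target also known as GILZ, differed by 0.18 with no overlap of arrays (adjusted p = 0.483). Fkbp5, the receptor's cochaperone, was at 6.70 to 6.95 at 1 h and 6.84 to 7.07 at 3 h, and Zbtb16, a zinc finger repressor, differed by -0.22. Of 12 osmotic response genes 0 were called and 2 had an unadjusted p under 0.05, both higher at 1 h (3.67% of all probe sets). The amino acid transporter Slc38a2, which hypertonicity and amino acid lack both raise, differed by 0.26 with no overlap (adjusted p = 0.277).

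Hes1 (10754943), a repressor downstream of Notch, was at 6.60, 6.80, 6.93 and 6.45 at 1 h against 6.11, 5.93, 6.10 and 6.41 at 3 h. The highest 3 h rat, C371, was just below the lowest 1 h rat. The difference was 0.56 ± 0.106 (SE), and it was the call nearest to the threshold (adjusted p = 0.048 in limma), lost without any 1 of C365, C367, C369, C373, C374 and C376 (0.0526 to 0.219). Of 11 Hes, Hey and Id repressors Hes1 was the 1 called, higher at 1 h (0.0986% of all probe sets), with 8 positive around a median of 0.10. Id3, an inhibitor of helix-loop-helix factors, differed by 0.29 (adjusted p = 0.371, and 0.035 without C371).

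Rcor2, a corepressor that works with the demethylase LSD1, differed by 1.67 ± 0.271 (SE; adjusted p = 0.0118 in limma) on probe set 10713496. This probe set was at 6.12, 5.38, 5.60 and 5.19 at 1 h against 4.61, 3.81, 3.52 and 3.66 at 3 h. The groups were far apart, but 3 of the 3 h values lay near the level of the dimmest markers (Ttr at 3.01 to 3.57). The deposited values carry no detection call, so no fold is given. The probe set is 1 of a pair for the gene. The other (10779600) was brighter and lay flat, at 6.51 to 6.67 at 1 h and 6.52 to 6.57 at 3 h, a difference of 0.04 ± 0.0589. After saccharin the first probe set also lay flat, with means of 5.52 ± 0.626 at 1 h and 5.48 ± 0.229 at 3 h (SD, n = 4). The call was lost without any 1 of C367, C369 and C376 (0.0597 to 0.0623), and which probe set reads the gene was not tested.

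The 19 probe sets were next set beside the rats that drank saccharin. Their arrays entered the shared estimate of spread on which the calls rest, so what follows is not independent of the choice of the 19. All 19 had the same sign after saccharin, and 18 were also called there, where 0.348% of all probe sets were called, 0.276% higher at 1 h and 0.0723% higher at 3 h. Rcor2 was the exception, with a difference of 0.04 after saccharin. Of the 15 genes higher at 1 h after water, 14 had a larger difference after saccharin, while of the 4 higher at 3 h 1 did. Nr4a1 differed by 1.96 after saccharin and 1.47 after water, Arc by 1.85 and 1.17, Klf10 by 1.26 and 0.80, and Fos by 1.37 and 0.99. Pde7b differed by -0.50 and -0.52, and Pde10a by -0.48 and -0.50.

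The test of the difference between the 2 changes passed for 0 of 15209 probe sets at an adjusted p under 0.05 in limma (0%), and for 450 (2.96%) at an unadjusted p under 0.05. Among the 19, Rcor2, Klf10 and Arc had such an unadjusted p. The change of Klf10 was smaller after water by 0.45 (95% interval of water minus saccharin -0.77 to -0.13), and that of Arc by 0.69 (-1.32 to -0.05). For Pde7b the interval was -0.20 to 0.17, for Csrnp1 -0.26 to 0.13 and for Gpr19 -0.21 to 0.20. At 3 h the mean level of Arc was 7.82 ± 0.625 after water and 7.15 ± 0.185 after saccharin, and at 1 h it was 8.98 ± 0.24 and 9.004 ± 0.186 (SD, n = 4). The intervals assume the same spread in the 4 groups, whereas the spread of Arc was widest after water at 3 h. The other probe sets with the smallest p for the difference, Asgr1, Agmat, LOC681325, Ephb3 and Or8s5, had differences between -0.19 and 0.31 after water and an adjusted p of 1 for the difference between tastes.

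**Figure D4:**
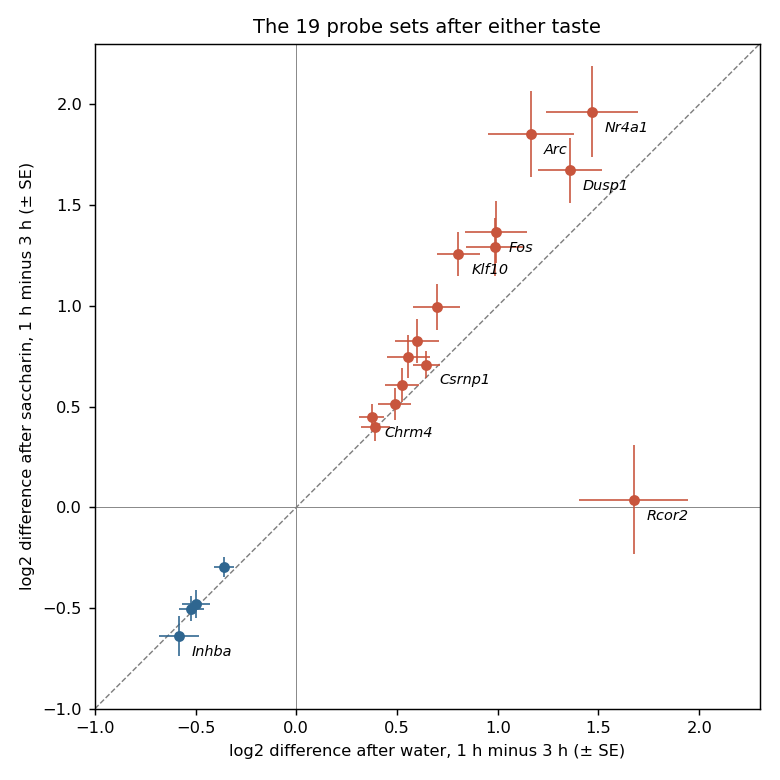
Log2 difference between 1 h and 3 h after water (x axis) and after saccharin (y axis) for the 19 probe sets called after water, with bars of 1 standard error and a dashed line where both are equal. Of the 15 genes higher at 1 h (red), 14 lie above the line and Rcor2 lies far below it, and the 4 genes higher at 3 h (blue) lie close to it.

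Among probe sets that were not called, the largest differences with an unadjusted p under 0.05 and no overlap of arrays took in other genes as well. Higher at 1 h were Elmod2 (0.66), Ska2, a spindle protein that also touches glucocorticoid signalling (0.54), Sfrp1, a secreted Wnt antagonist (0.52) and Acer2, a Golgi ceramidase (0.50). Higher at 3 h were Btn3a2 (-0.44), Prag1 (-0.40), Nppa, the atrial natriuretic peptide precursor (-0.36), St3gal1, a sialyltransferase (-0.35), Camk1g, a calcium and calmodulin-dependent kinase (-0.33) and Hcrtr1, the first orexin receptor (-0.33). None passed the adjusted threshold (adjusted p from 0.12 to 0.483 in limma), and St3gal1 passed without C373 (0.0308). Btn3a2 lay between 2.27 and 3.19 on all 8 arrays, near the floor, and Elmod2 was also dim, at 3.32 to 4.70.

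Endoplasmic reticulum chaperones and unfolded protein response genes tended to lie slightly higher at 3 h. Of 20 measured 0 were called in limma, 3 had an unadjusted p under 0.05, all higher at 3 h (3.56% of all probe sets), and 18 were negative around a median of -0.05. Hspa5, the main chaperone of the compartment, was at 10.42, 10.40, 10.36 and 10.43 at 1 h against 10.76, 10.54, 10.58 and 10.40 at 3 h. C365 was again the highest and C371 lay among the 1 h rats, and the difference was -0.17 (adjusted p = 0.483). Dnajb11, its cochaperone, differed by -0.15 and Calr, a calcium-binding chaperone, by -0.13. The mean level of the list was 8.44 to 8.51 at 1 h and 8.49 to 8.63 at 3 h, so the groups overlapped.

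Housekeeping groups were near the middle of all probe sets. The median difference was -0.00574 for 16 heat shock genes, 0.02 for 15 cholesterol synthesis genes, 0.02 for 25 proteasome subunits, 0.01 for 27 respiratory chain genes and 0.02 for 20 translation initiation factors, with 0 called among them in limma and 1, 0, 2, 2 and 2 at an unadjusted p under 0.05. Over all probe sets the shares were 0.125% called and 7.23% at that unadjusted p. For the respiratory chain and for translation, 1 gene lay in each direction. Gapdh differed by -0.00317 ± 0.0556 (SE) and Actb by -0.02 ± 0.0497. Of the 10 reference genes Hprt1 had the largest difference, at 0.22 (adjusted p = 0.483).

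Markers of the leptomeninges, the thin membranes over the cortex, tended to lie higher at 1 h, as did the 15 genes. Of 22 measured 0 were called in limma, 5 had an unadjusted p under 0.05, all higher at 1 h (3.67% of all probe sets), and 21 were positive around a median of 0.20. The collagen-binding proteoglycan Dcn was at 7.16, 7.14, 7.42 and 7.19 at 1 h against 6.58, 7.01, 6.95 and 7.06 at 3 h, with no overlap. Ogn differed by 0.40, Igfbp2 by 0.30, Serping1 by 0.31 and Igf2 by 0.24. The mean level of the 22 was 6.63, 6.66, 6.90 and 6.81 on the 1 h arrays and 6.38, 6.59, 6.48 and 6.78 on the 3 h arrays, so the groups overlapped. Among the 3 h rats, C365 was the lowest for 13 of the 22 markers and the highest for 0, and C371 the highest for 17. For the immediate early transcription factors, C365 was the highest for 18 of 28. After saccharin 22 of the 22 markers were positive, around a median of 0.315. With the mean level of these markers as a covariate, 13 probe sets were called, 11 of them among the 19. Ier2, Klf4, Trib1, Gpr19, Per1, Arc, Hes1 and Inhba did not pass in that fit, with adjusted p-values from 0.0553 to 0.161. With and without the covariate the differences were 1.2 and 1.17 for Arc, 0.64 and 0.60 for Per1, and -0.60 and -0.58 for Inhba. The others were smaller with it, at 0.68 and 0.70 for Trib1, and 0.55 and 0.56 for Hes1. Likewise, Klf4 was at 0.46 and 0.49, Ier2 at 0.47 and 0.53, and Gpr19 at 0.32 and 0.39.

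**Figure D5:**
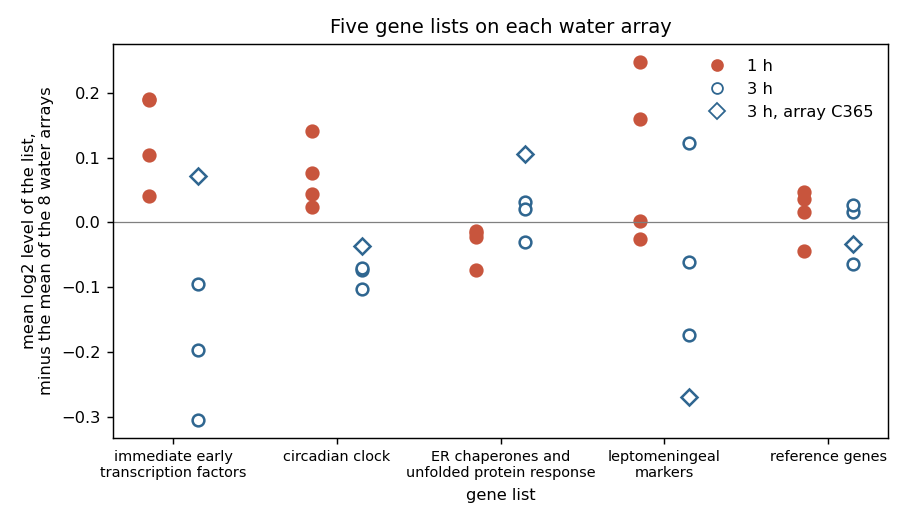
Mean log2 level of 5 gene lists on each water array, minus the mean of the 8 arrays, with 1 h arrays filled and 3 h arrays open. Of the 5 lists (immediate early transcription factors, clock genes, endoplasmic reticulum chaperones, leptomeningeal markers and reference genes), the clock genes alone do not overlap between times (7.50 to 7.62 at 1 h, 7.37 to 7.44 at 3 h), and the 3 h array C365, the diamond, is the highest 3 h array for the immediate early genes and the lowest for the leptomeningeal markers. Among lists not drawn, the phosphodiesterases do not overlap either (6.986 to 7.032 at 1 h, 7.052 to 7.085 at 3 h). The osmotic response genes are also apart, narrowly (8.134 to 8.155 at 1 h, 8.059 to 8.133 at 3 h).

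Other cell types differed less. The median difference was 0.00026 for 12 astrocyte markers, -0.00978 for 13 oligodendrocyte markers, 0.00764 for 17 markers of microglia and macrophages, -0.04 for 12 markers of excitatory cortical neurons, 0.00259 for 15 interneuron markers and 0.05 for 10 markers of choroid plexus and ependyma, with 0 called in limma and 0, 0, 1, 1, 1 and 0 at an unadjusted p under 0.05. Over all probe sets the shares were 0.125% called and 7.23% at that unadjusted p, both directions together. Choroid plexus markers were near the floor, with Ttr between 3.01 and 3.57. Of 8 blood markers 0 were called and 2 had an unadjusted p under 0.05, the haemoglobin genes Hbb (0.39) and Hbb-b1 (0.45), both higher at 1 h with no overlap of arrays. Over all probe sets the shares for that p and for no overlap were 3.67% and 1.93%. The blood markers did not move together, with 5 of the 8 positive and 3 negative around a median of 0.04. In 1 of the 8 the 3 h arrays lay wholly above the 1 h arrays, against 2.43% of all probe sets. The part of blood content in the differences between times was not tested, as no blood marker entered the covariate fit. That of membrane content was not tested either. The leptomeningeal mean itself tended to lie higher at 1 h, so the covariate fit cannot fully tell it apart from time.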

How the data were processed

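Affymetrix RaGene 1.1 ST v1 arrays measured the mRNA of the gustatory cortex, 1 array per rat and 4 in each of 4 groups. The authors summarised each probe set by RMA with affy (version not stated there), after quantile normalization of probe signals over all chips, and deposited log2 values. Quantile normalization gives all arrays nearly the same distribution, so a shift common to all genes would not be seen.

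The values were used as they are. Of 28826 probe sets, the array annotation pairs 15209 (14497 genes) with exactly 1 gene, which were tested, 306 with several and 13311 with none it names. Symbols were updated through RefSeq gene IDs for 15178. Where a listed gene had several probe sets, the brightest stands for it. Arrays give no counts, and the number of arrays limits the precision: the median standard error of a difference was 0.0647.

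limma 3.58.1 (R 4.3.3) fitted the 4 group means to all 16 arrays with an empirical Bayes prior and Benjamini-Hochberg adjustment over the 15209, 12 residual degrees of freedom and 5.6 from the prior. Comparisons were 1 h minus 3 h after water, the same after saccharin, and their difference, all two-sided. The standard errors assume that a probe set has the same spread in the 4 groups. The fit was tested on simulated data. None of the 120 pairs of arrays held identical values. The members, gene lists and tests were chosen with earlier results of these data known. Named genes are all called probe sets, the 8 largest other differences in each direction without overlap of arrays, list members with the smallest p, the 6 smallest p for the difference between tastes, Arc, Nr4a1, Dusp6, Gapdh and Actb, and the 4 list members nearest outside the threshold. Fosl2, Srf, Egr1, Egr2, Egr3, Klf6, Npas4, Per2, Homer1, Chrm1, Fkbp5, Slc17a7, Adora2a and Ldha were named after their values were seen, as were the second probe sets of Rcor2 and Klf4. Promoter windows are from RefSeq (GRCr8) and were held for 11 of the 19 called genes. Alternatives were the fit to 8 arrays, other priors and weights, other filters and normalizations, a covariate, and leaving out each water array.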

Additional observations from a re-analysis of the deposited data

Results flagged for a closer look

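In 222 groups of 4 rats examined, 8 had 1 rat set apart from the other 3 beyond Dixon's 95% limit, and chance alone gives about 1 in 20 groups. At 3 h after water, array C365 was high for Egr1 (9.75, the others 9.18 to 9.27) and for Egr2 (6.46, the others 5.46 to 5.51), and C367 was high for Elmod2 (3.90, the others 3.32 to 3.40). At 1 h, C376 was high for Elmod2 (4.70, the others 3.94 to 4.01) and for Dcn (7.42, the others 7.14 to 7.19). C378 was low for Vgf (7.53, the others 7.91 to 7.92) and for Egr3 (6.87, the others 7.004 to 7.03), and C373 was high for Ccr2, a chemokine receptor of monocytes (4.24, the others 4.11 to 4.13).

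In a fit over all 28826 probe sets, 1 probe set that the annotation pairs with no gene also passed, higher at 1 h by 0.98. It remains unnamed here.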

How the results depend on the processing

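The count of 19 called probe sets (15 higher at 1 h, 4 higher at 3 h) depended most on the estimate of spread. It was 3 (2 and 1) in the fit to the 8 water arrays alone, 6 (2 and 4) by least squares without moderation, and 11 (8 and 3) over all probe sets of the table, where more tests are adjusted for. With the leptomeningeal marker mean as a covariate 9 were higher at 1 h, and among probe sets with a mean of 6 or more 7 were higher at 3 h. Leaving out 1 array gave 8 to 28 called, 5 to 23 of them higher at 1 h and 3 to 6 higher at 3 h. The study's cut-off passed 87, 272 over all probe sets of the table, 45 among those with a mean of 6 or more, and 82 to 124 with 1 array left out. The 7 immediate early transcription factors called became 1 in the fit to the water arrays, and 4 to 8 with 1 array left out. Csrnp1, Dusp1 and Pde7b kept their calls under every alternative in which they were tested, Csrnp1 not being among the probe sets with a mean of 6 or more, and 16 of the 19 lost it in 1 or more. No value of a named gene reversed with a call on either side. The difference between tastes stayed at 0 called under every alternative run for it, which leaves out least squares without moderation, the covariate fit and the fit to the water arrays alone.

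Medians of most lists moved by less than the spread between rats. The exceptions were the receptors at -0.0248 with array weights, the GABA-A subunits at -0.0548 and the choroid plexus markers at -0.032 among probe sets with a mean of 5 or more, the osmotic genes at -0.0301 and the GABA-A subunits at -0.0548 with a mean of 6 or more, and the blood markers at 0.387 and 0.421 under those filters. A filter leaves the difference of each probe set as it was and drops dim members, so the medians under the filters are over fewer genes. With 1 array left out, the phosphodiesterases ran from -0.0413 to -0.00913, the receptors from -0.0239 to -0.00744, the GABA-A subunits from -0.0487 to 0.00524 and the microglial markers from -0.0256 to 0.0324. The cause of the moves outside the filters was not tested.

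No paired analysis was possible because the water groups share no replicate number. With 4 rats a group, the smallest p an exact permutation test can give is 0.0286, and the p-values here lean on the prior and on the shared spread. Each rat is 1 array, with no technical repeat.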

Other observations

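The largest difference by size among probe sets that were not called was that of Ldha, the muscle-type lactate dehydrogenase, on probe set 10908861 (-1.76 ± 1.38 SE, adjusted p = 0.844 in limma). It did not divide the rats by time. Of the 16 arrays of the series, C373 (5.29), C375 (5.09) and C368 (5.43) were low, and the other 13 lay between 10.27 and 11.25. C373 is a water array at 1 h, and C375 and C368 are saccharin arrays. The second probe set of Ldha (10707137) lay between 9.84 and 10.15 on all 16, so the 3 rats did not stand apart on it. The cause was not tested.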
